A study of Mus musculus with 4 samples.

Results

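The 10 genes described here encode matrix proteins, or proteins typical of mesenchymal and epithelial cells, in sorted bone marrow-derived dendritic cells (BMDC). They are the matricellular protein gene Sparc, the collagen chain genes Col1a1, Col1a2, Col3a1, Col4a1 and Col4a2, the fibronectin gene Fn1, the surface protein gene Tm4sf1 and the actin-binding protein genes Cald1 and Tagln. All probe sets that the array annotation assigns to 1 of these symbols were taken, which gave 24 of 34945 probe sets with a single gene and 10 of 18193 genes. The genes were selected on their signals in the cocultures and the control of these same arrays, where several had been seen to be higher with tumour cells, so their ratios are a description of the arrays and were not tested.

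BMDC were grown from the marrow of male C57BL/6 mice aged 6 to 8 weeks in medium with 500 U/ml GM-CSF for 7 days, in all 4 conditions. The control BMDC met no tumour cells. The live coculture held 1D8 cells, an ovarian surface epithelial cell line of the mouse, at 1 part to 5 parts BMDC. The irradiated coculture held 1D8 cells given 50 Gy, also at 1 part to 5 parts BMDC. The conditioned medium culture held 25% (v/v) supernatant of 1D8 cells and no tumour cell. Every sample was sorted on an antibody to CD80, a costimulatory surface protein, before RNA was taken. Each condition was 1 biological sample on 1 array, so no value has a replicate error, no p-value can be given, and higher and lower compare single arrays. How many mice gave the marrow is not given in the sources used here. An array of 1D8 cells alone was not analysed here.

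Collagen type I and type III chains form the fibrils of connective tissue, and fibroblasts are their main source. Collagen type IV, whose chains include those of Col4a1 and Col4a2, is the network of basement membranes, the sheets under epithelia. SPARC binds collagens and shapes the matrix without being a structural part of it, and fibronectin is an adhesive glycoprotein that integrins bind. Caldesmon (Cald1) and transgelin (Tagln) bind actin filaments and are abundant in smooth muscle. TM4SF1 is a membrane protein with 4 membrane spans found on endothelial and many epithelial tumour cells. Macrophages and dendritic cells also make some of these products, fibronectin above all.

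Only some of these genes differed between the arrays. Sparc, Cald1, Tm4sf1, Col4a1 and Col4a2 were at least 2-fold higher in both cocultures than in the control (2.37% of all genes were), and Fn1 was so in the irradiated coculture. The 3 fibrillar collagen genes and Tagln did not reach 2-fold against the control on any treated array, but Col1a1, Col3a1 and Tagln were too dim in the control for more than a bound. Ratios were taken after signals under a floor of 44.3, the median of all non-control signals on the 4 arrays, had been set to the floor, and each gene was counted at the probe set whose log2 signals had the highest mean. A ratio against a signal at or under the floor is a lower bound and is written as "at least", and counts and medians take it at its bound. With these rules 5 of the 10 genes were higher in the live coculture against 3.36% of all genes, and 6 of 10 in the irradiated coculture against 3.47%. None was lower, where 2.23% and 2.25% of all genes were. None was higher or lower in conditioned medium, where 2.3% of all genes were higher and 1.41% lower. The median log2 ratio of the 10 genes was 1.35 with live cells, 1.53 with irradiated cells and 0.17 with conditioned medium, and that of all genes was 0.00 in each. These shares follow from how the genes were picked and carry no weight as evidence. Each array measured a bulk sample, in which a change in the number of cells of a type and a change in RNA per cell cannot be told apart.

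Promoters are shown for the 5 genes that were higher in both cocultures, since they share a pattern over the 4 arrays. RefSeq promoter windows of assembly GRCm38.p6, running from 250 bases before to 50 bases after an annotated start, were matched by symbol for 7 of the 10 genes, in 8 windows. Col1a1, Fn1 and Tagln had no entry. Each is written 5′ to 3′ on the strand of its gene, and capitals mark every match, on either strand, to the AP-1 site (TGANTCA), the GC box (GGGCGG), the TATA box (spelled TATAAA), the nuclear factor Y or NF-Y site (CCAAT), the TEAD site (GGAATG), the core of the hypoxia response element (ACGTG) or the CArG box, the site of serum response factor.
Tm4sf1 (chr3:57301939-57302238, minus strand): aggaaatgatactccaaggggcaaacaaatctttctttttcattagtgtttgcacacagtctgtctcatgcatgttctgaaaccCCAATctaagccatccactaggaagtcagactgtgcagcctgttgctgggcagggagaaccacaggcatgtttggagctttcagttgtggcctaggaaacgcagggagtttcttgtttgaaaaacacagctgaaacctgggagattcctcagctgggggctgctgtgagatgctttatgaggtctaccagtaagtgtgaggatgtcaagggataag
Sparc (chr11:55420031-55420330, minus strand): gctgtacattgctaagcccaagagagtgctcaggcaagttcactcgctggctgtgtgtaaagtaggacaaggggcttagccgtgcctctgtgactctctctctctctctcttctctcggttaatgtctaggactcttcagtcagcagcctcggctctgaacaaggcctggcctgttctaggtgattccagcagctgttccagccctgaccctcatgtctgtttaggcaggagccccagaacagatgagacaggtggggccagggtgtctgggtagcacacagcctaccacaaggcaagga
Cald1, first window (chr6:34598254-34598553, plus strand): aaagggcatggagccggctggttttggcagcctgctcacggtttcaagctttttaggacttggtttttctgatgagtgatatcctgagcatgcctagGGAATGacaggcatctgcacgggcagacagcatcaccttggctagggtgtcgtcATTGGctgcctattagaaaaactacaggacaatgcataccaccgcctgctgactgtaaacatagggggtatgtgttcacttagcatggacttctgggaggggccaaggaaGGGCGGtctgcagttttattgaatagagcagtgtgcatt
Cald1, second window (chr6:34709194-34709493, plus strand): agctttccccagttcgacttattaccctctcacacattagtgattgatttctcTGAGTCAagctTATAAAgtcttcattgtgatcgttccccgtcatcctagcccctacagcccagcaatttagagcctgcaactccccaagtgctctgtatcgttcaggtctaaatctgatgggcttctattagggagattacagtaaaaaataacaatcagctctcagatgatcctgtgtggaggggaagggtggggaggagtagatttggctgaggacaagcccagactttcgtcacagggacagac
Col4a1 (chr8:11312777-11313076, minus strand): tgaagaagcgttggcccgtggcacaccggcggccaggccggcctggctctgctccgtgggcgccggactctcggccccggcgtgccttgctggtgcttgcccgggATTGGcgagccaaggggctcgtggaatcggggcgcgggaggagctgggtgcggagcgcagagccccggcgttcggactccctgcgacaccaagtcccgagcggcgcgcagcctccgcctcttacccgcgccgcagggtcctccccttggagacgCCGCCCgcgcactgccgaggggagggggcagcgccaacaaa
Col4a2 (chr8:11312555-11312854, plus strand): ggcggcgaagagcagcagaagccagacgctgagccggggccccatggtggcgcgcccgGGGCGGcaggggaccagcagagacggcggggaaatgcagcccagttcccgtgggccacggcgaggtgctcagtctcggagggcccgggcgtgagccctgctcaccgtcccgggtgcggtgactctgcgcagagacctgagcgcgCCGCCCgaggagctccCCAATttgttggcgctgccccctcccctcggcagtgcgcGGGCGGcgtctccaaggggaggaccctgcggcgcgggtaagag

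The windows of Col4a1 and Col4a2 lie on opposite strands of chromosome 8, share 78 bases and have annotated starts 21 bases apart, so the last stretch of 1 is the reverse complement of the last stretch of the other. Their GC contents, 74.0% and 73.7%, were above the upper quartile of 61.7% over 32544 windows, whereas Tm4sf1 (47.3%) and both Cald1 windows (50.3% and 47.0%) lay under the median of 53.0%. No motif was common to the 6 windows. Among the 6, the NF-Y letters were in those of Tm4sf1, Col4a1 and Col4a2 and in the first of Cald1, and in 37.4% of all windows. Among the 6, the GC box was in those of Col4a1 and Col4a2 and in the first of Cald1, and in 35.9% of all windows. The GC box of Col4a1 and the last GC box of Col4a2 are the same bases in the stretch that both windows share. They are therefore 1 site and not separate matches. The AP-1 letters (7.79% of all windows) and a TATA box (13.6%) were in the second Cald1 window, and the TEAD letters (14.6%) in the first. The Sparc window (55.3% GC) held none of the letters searched. The hypoxia response core, present in 19.7% of all windows, was in none of the 6 but occurred at 2 places in the window of Col1a2, a gene not 2-fold apart on any treated array. The CArG box (1.64% of all windows) was in none of the 8. The window of Col3a1 held a TATA box and the TEAD letters. A match says only that the letters are there.

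Tm4sf1 had the largest ratio of the 10 genes. Probe set 1450958_at read 3.2 for the control, 788.6 for live coculture, 1211.8 for irradiated coculture and 22.2 for conditioned medium. Only the coculture arrays were above the floor. The gene was at least 17.8-fold higher in the live coculture and at least 27.4-fold higher in the irradiated one, against the control. Against all 18193 genes these ratios ranked 5 and 2. The gene's other probe sets were dim. Probe set 1439925_at had signals of 3.0, 53.7, 34.7 and 7.7 in the order control, live coculture, irradiated coculture and conditioned medium, the order used for every such series of 4 from here on. It passed the floor in the live coculture alone, with a log2 ratio of at least 0.28, so how far it differed is not known. Probe set 1448069_at had 21.9, 4.1, 3.4 and 1.9, all under the floor. Of the other members of the TM4SF family, 3 were measured, 2 of them under the floor on all arrays and the third above it in conditioned medium alone.

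Sparc had 3 probe sets, of which 2 were higher in both cocultures. Probe set 1448392_at had signals of 49.0, 224.6, 319.6 and 58.1, and was 4.58-fold (live) and 6.52-fold (irradiated) higher than the control in the cocultures. Probe set 1416589_at had 13.6, 400.3, 415.9 and 39.1, at least 9.04-fold and at least 9.39-fold higher. On both, the coculture signals lay far above the control and conditioned medium signals. The third, 1458204_at, had 63.4, 62.1, 49.8 and 43.4, with log2 ratios of -0.03 and -0.35 in the cocultures, so it put the cocultures at or slightly under the control. Signals of 1458204_at were near the floor, and under it in conditioned medium, so its ratios are those of a dim probe set. The control signal of 1448392_at, 49.0, was also near the floor, though its coculture signals were not. The log2 ratios of 1448392_at and 1458204_at differed by 2.23 in the live coculture and by 3.05 in the irradiated coculture. The brighter 1416589_at was left out of this pair because it was under the floor in the control. For genes with at least 2 probe sets above the floor on both arrays, the 2 brightest of these were compared. They differed by 2 or more for 0.936% of 4272 genes in the live coculture and 0.469% of 4263 genes in the irradiated coculture. These shares take in probe sets of any brightness above the floor. They do not show how rare such a difference is for a probe set near it.

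Cald1 was measured by 5 probe sets, 3 of them higher in both cocultures. The brightest, 1424769_s_at, had signals of 68.9, 382.9, 305.1 and 94.3, a ratio of 5.56-fold in the live and 4.43-fold in the irradiated coculture. An ending in _s_at marks probes that match more than 1 transcript. Probe set 1424768_at had 38.8, 237.3, 239.5 and 35.7, at least 5.36-fold and at least 5.41-fold higher. The third, 1424770_at, had 50.9, 109.1, 125.7 and 21.6, a smaller ratio of 2.14-fold and 2.47-fold. On all 3 both cocultures exceeded both other arrays. Probe set 1433147_at had 25.5, 56.7, 45.2 and 25.2, above the floor in the cocultures alone, with log2 ratios of at least 0.36 and at least 0.03. The last, 1433146_at, did not exceed 4.2 on any array. The annotation holds 2 start sites for the gene, in the windows shown above, and which transcripts the probe sets match was not examined.

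**Figure D1:**
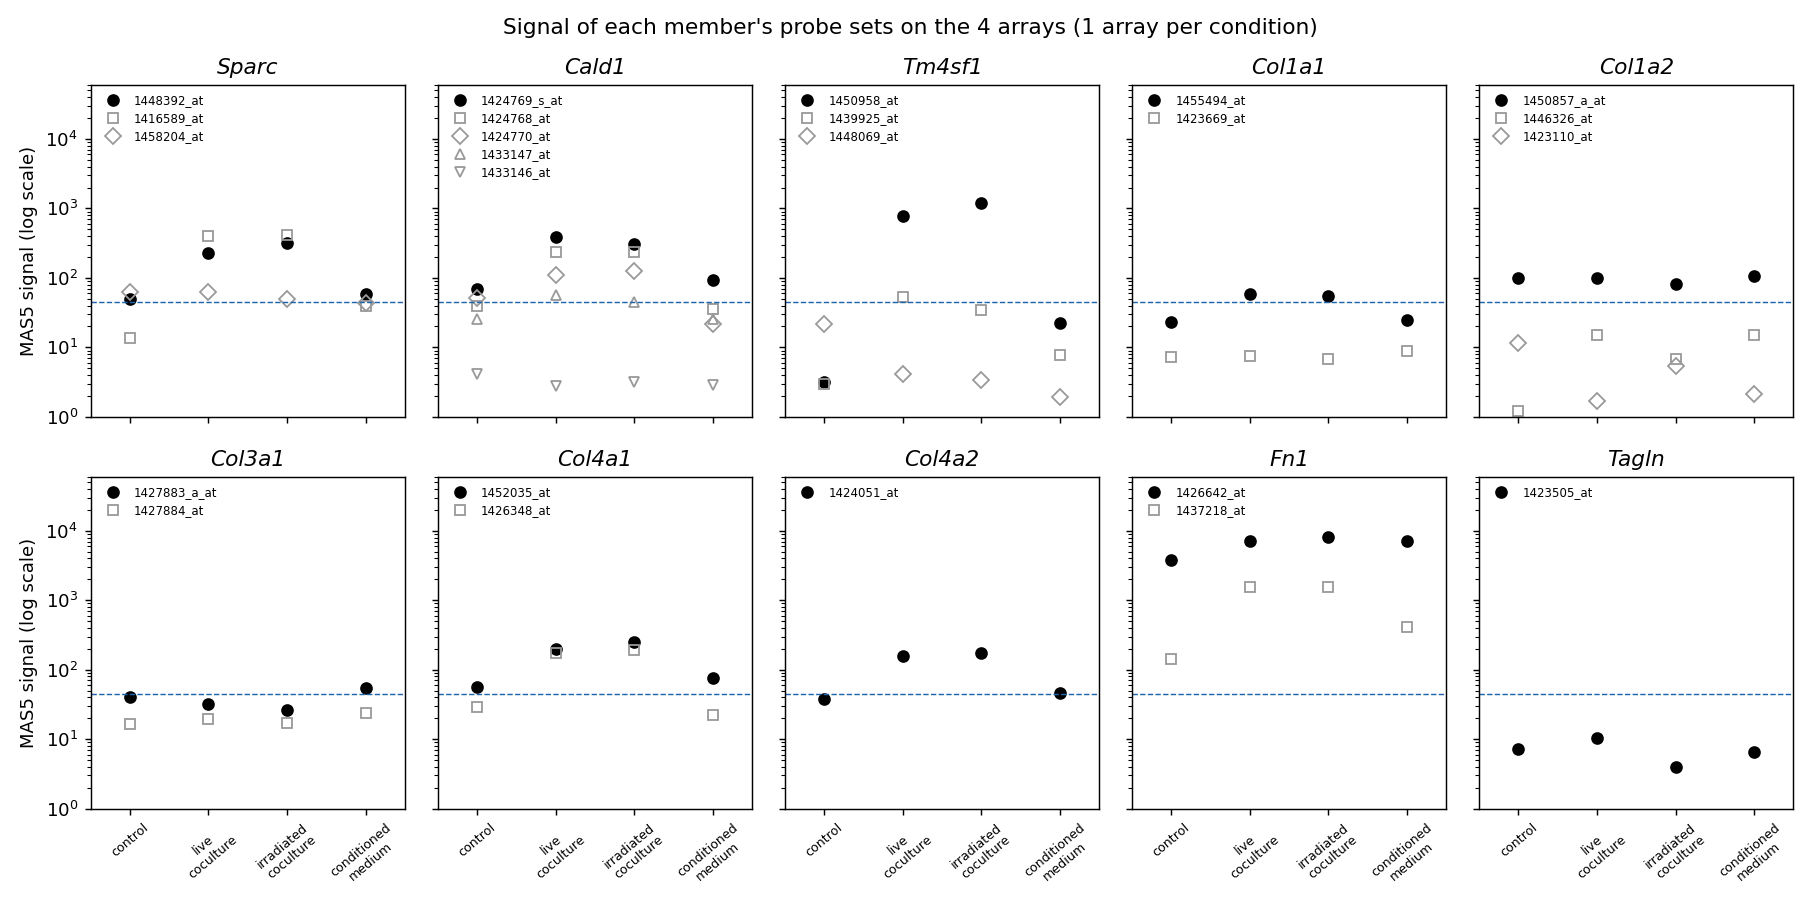
Signal of all 24 probe sets (log scale) on the 4 arrays, 1 panel for each gene, with 1 point for each array. Filled points are the brightest probe set by mean log2 signal, open points the others, and the dashed line is the floor of 44.3. Sparc, Cald1, Tm4sf1, Col4a1 and Col4a2 had a filled point that was high on both coculture arrays and low on the other 2, while the points of Tagln stayed under the floor.

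The basement membrane collagen genes Col4a1 and Col4a2 were higher in the cocultures, with several of their ratios given as bounds. For Col4a1, probe set 1452035_at had signals of 56.5, 197.2, 251.5 and 75.2, which was 3.49-fold higher in the live and 4.45-fold higher in the irradiated coculture. Its other probe set, 1426348_at, had 28.8, 175.2, 192.5 and 22.2, at least 3.95-fold and at least 4.35-fold higher. The log2 ratios of the 2 probe sets differed by 0.18 in the live and by 0.03 in the irradiated coculture. Those of 1426348_at are bounds, so how far the 2 probe sets differed is not known. Col4a2 had a single probe set, 1424051_at, with 38.1, 155.6, 171.2 and 45.9, at least 3.51-fold and at least 3.86-fold higher. On all 3 probe sets the coculture arrays lay above the control and conditioned medium arrays.

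Fn1 was the only member with a high signal in the control, and its 2 probe sets differed in size. Probe set 1426642_at had 3834.4, 7111.6, 8273.7 and 7098.5, which was 1.85-fold higher with live cells, 2.16-fold with irradiated cells and 1.85-fold with conditioned medium. Here the 3 treated arrays lay together above the control. Probe set 1437218_at had 142.0, 1551.1, 1531.5 and 413.9, 10.9-fold, 10.8-fold and 2.91-fold higher in the same order of treated arrays. Here conditioned medium lay between the control and the cocultures. The log2 ratios of the 2 probe sets differed by 2.56 with live cells, by 2.32 with irradiated cells and by 0.65 with conditioned medium. A difference of 2 or more between 2 probe sets was found for 0.278% of 4315 genes in conditioned medium. Between each coculture and conditioned medium 1426642_at had log2 ratios of 0.00 and 0.22, and 1437218_at had 1.91 and 1.89. Probe set 1426642_at was close to the top of the signal range, with 445 of 45037 probe sets brighter in the control, 57 with live cells, 40 with irradiated cells and 94 with conditioned medium. For 1437218_at 11321 probe sets were brighter in the control and 1169 in the live coculture. Whether brightness had a part in the difference between the probe sets was not tested.

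The fibrillar collagen genes had low signals, and most ratios to the control were bounds or could not be given. Col1a2 had signals of 98.2, 98.7, 82.0 and 105.2 at probe set 1450857_a_at, with log2 ratios of 0.01, -0.26 and 0.10 to the control, and its other 2 probe sets did not exceed 15.1. Col1a1 had 23.5, 58.8, 54.4 and 24.4 at 1455494_at, above the floor in the cocultures alone, with log2 ratios of at least 0.41 and at least 0.30, and 8.9 at most at 1423669_at. Col3a1 had 41.0, 32.5, 26.6 and 54.6 at 1427883_a_at, above the floor in conditioned medium alone, and 23.9 at most at 1427884_at. The single probe set of Tagln, 1423505_at, had 7.1, 10.4, 4.0 and 6.6, all under the floor, so no ratio can be given. In all, 9 of the 10 genes exceeded the floor on some array and 5 on all 4 at their brightest probe sets, and 17 of 24 probe sets did so on some array and 6 on all 4. A gene under the floor may be expressed at a level these probe sets do not resolve.

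**Figure D2:**
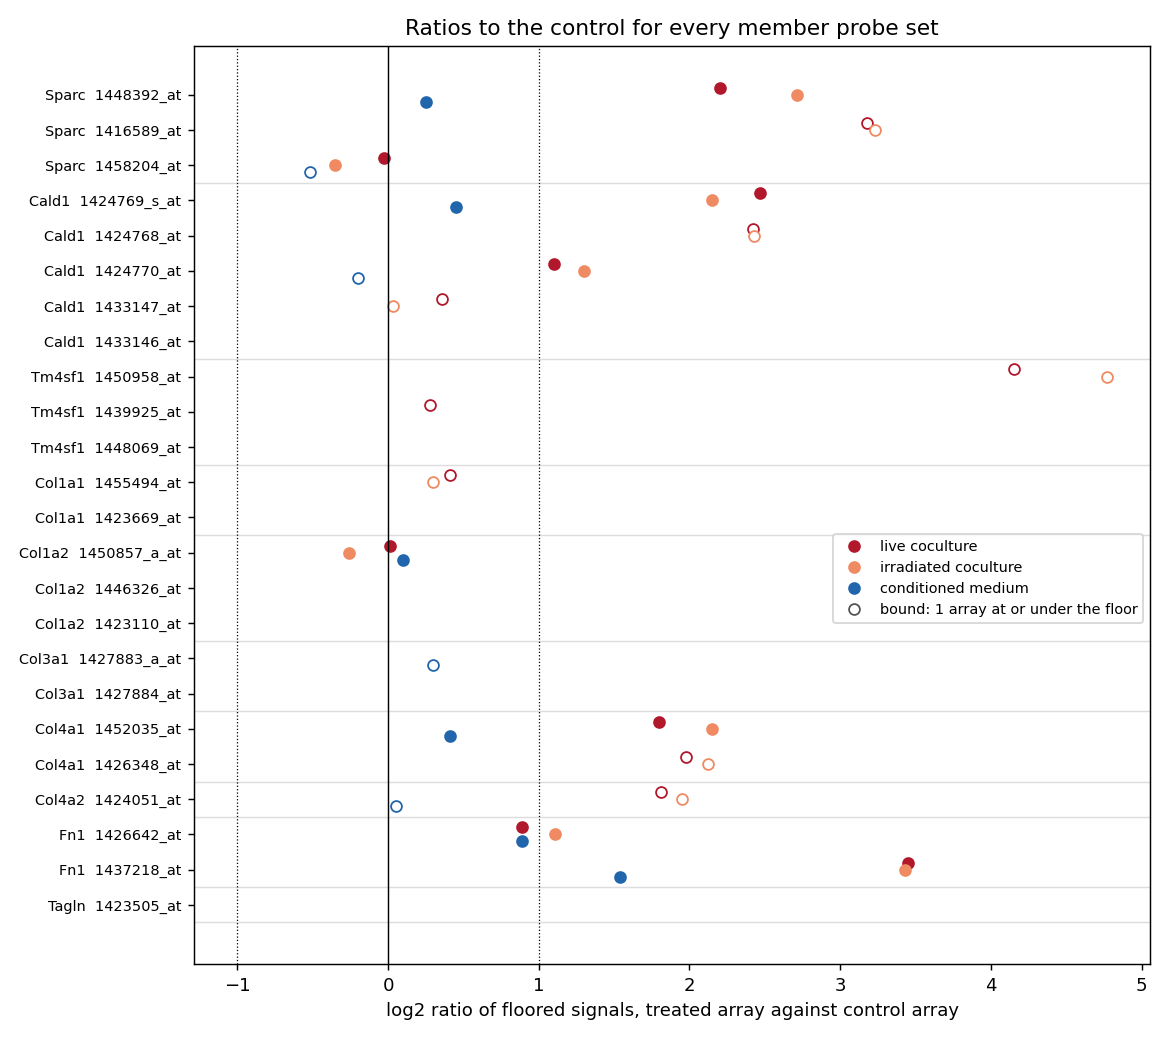
Log2 ratio to the control array for each of the 24 probe sets, in the live coculture (dark red), the irradiated coculture (orange) and conditioned medium (blue). Open points are bounds, a missing point means that both arrays were at or under the floor, and dotted lines mark 2-fold. The probe sets of Col4a1 and Col4a2 were drawn between 1.80 and 2.15 in the cocultures, but all except those of 1452035_at are bounds. The narrow range is therefore partly set by the floor. The points of Sparc, Cald1, Tm4sf1 and Fn1 were spread widely.

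Counted by probe set, 10 of 24 were higher in the live coculture (4.61% of all probe sets with a single gene) and 11 of 24 in the irradiated coculture (4.17%), with none lower (1.95% and 1.91% of all). The same 10 were higher in both, and these belonged to Sparc, Cald1, Tm4sf1, Col4a1, Col4a2 and Fn1. In conditioned medium 1 of 24 was higher (3.47% of all) and none lower (1.21%), the 1 being probe set 1437218_at of Fn1. Differences between the 2 brightest probe sets of a gene put the SD of 1 log2 ratio at 0.41 for the live coculture against the control, 0.37 for the irradiated coculture and 0.36 for conditioned medium. These SDs measure how 2 probe sets differ on the same RNA and hold no spread between cultures.

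The conditioned medium array offers a reference that does not use the control. Sparc, Cald1, Tm4sf1, Col4a1 and Col4a2 were at least 2-fold higher in each coculture than in conditioned medium too, 5 of 10 genes against 1.75% of all genes for the live and 1.95% for the irradiated coculture. Of all genes, 0.951% were 2-fold higher in both cocultures against both the control and conditioned medium. Both coculture arrays were used in picking the genes. The shares in these comparisons therefore also follow from how the genes were picked and carry no weight as evidence. The live coculture against the control and the irradiated coculture against conditioned medium share no array, and 1.18% of all genes were 2-fold higher in both. For Sparc the log2 ratio was 2.20 in the first of these and 2.46 in the second, for Cald1 2.47 and 1.69, for Col4a1 1.80 and 1.74, and for Col4a2 at least 1.81, and 1.90. For Tm4sf1 they were bounds of 4.15 and 4.77. For Fn1 they were 0.89 and 0.22 at 1426642_at and 3.45 and 1.89 at 1437218_at.

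**Figure D3:**
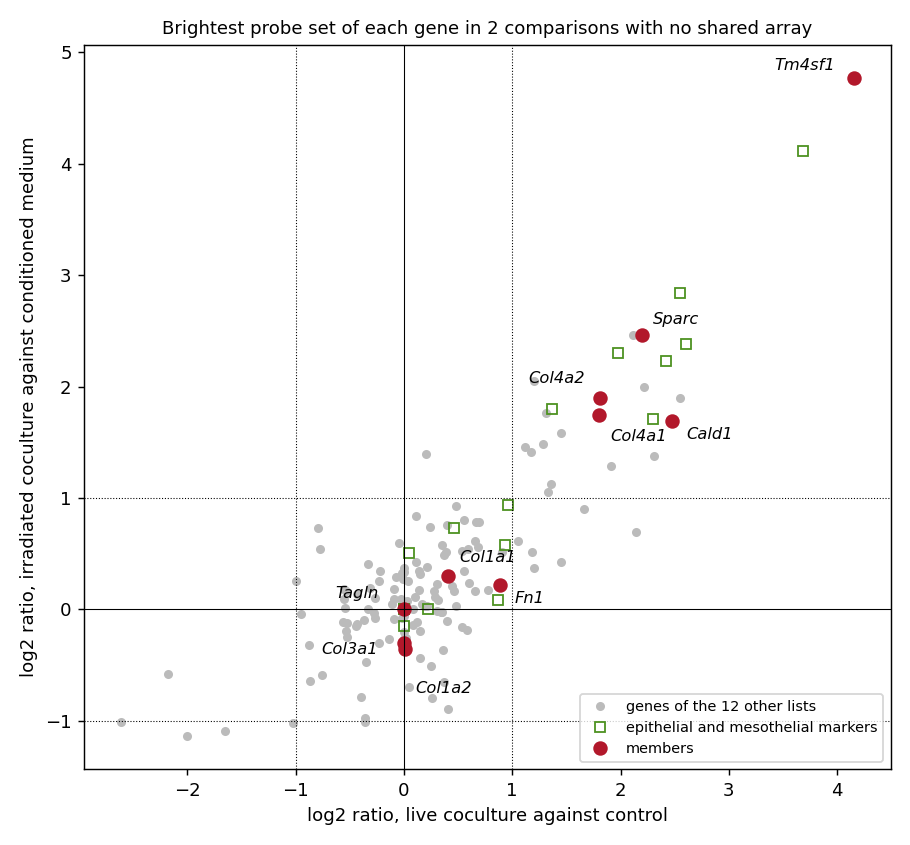
Log2 ratio of the live coculture to the control (horizontal) against that of the irradiated coculture to conditioned medium (vertical), at the brightest probe set of each gene. Red points are the 10 members, green squares are epithelial and mesothelial markers, grey points are the genes of the 12 other lists, and dotted lines mark 2-fold. Tm4sf1, Sparc, Cald1, Col4a1 and Col4a2 were above 2-fold on both axes, and Fn1, Col1a1, Col1a2, Col3a1 and Tagln were below it on both, with dim genes drawn at their bound.

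The arrays with live and irradiated tumour cells were close to each other for these genes. None of the 10 genes and none of the 24 probe sets was 2-fold apart between the cocultures, where 0.368% of all genes were higher and 0.302% lower in the live coculture, as were 0.612% of probe sets in either direction. Of the 6 genes that were higher in a coculture than in the control, 5 had the higher signal in the irradiated coculture and 1, Cald1, in the live coculture. Their log2 ratios of live to irradiated ran from -0.62 (Tm4sf1) to 0.33 (Cald1) with a median of -0.28. The SD over genes above the floor in this comparison was 0.26, estimated from the median absolute deviation. The order of Cald1 was not shared by all of its probe sets, since 1424770_at had a log2 ratio of -0.20 and 1424768_at of -0.01. For Sparc it was -0.51 at 1448392_at and -0.06 at 1416589_at, but 0.32 at 1458204_at. Nor was the order of the other genes shared throughout, with 0.02 at 1437218_at of Fn1 and at least 0.28 at 1439925_at of Tm4sf1.

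The genes around the members were read from 13 lists. Over all genes 3.36% were higher and 2.23% lower in the live coculture, and 3.47% and 2.25% in the irradiated coculture. In conditioned medium 2.3% were higher and 1.41% lower. The lists are short, so a count of 0 or 1 does not set a list apart from these shares. The list of collagen synthesis and crosslinking had 4 of 18 measured genes higher in the live and 5 of 18 in the irradiated coculture. None was lower, and the medians were 0.22 and 0.12. P4ha1, a subunit of the prolyl hydroxylase that stabilises collagen, had signals of 217.4, 1076.6, 1121.0 and 432.1, which is 2.31 on the log2 scale with live cells. Its sister gene P4ha2 had 17.5, 205.9, 176.7 and 41.8. Pcolce, which speeds the cutting of procollagen, had 12.2, 192.2, 244.9 and 23.7, and a dimmer probe set of the gene had 4.7, 62.0, 22.0 and 17.2. Plod2, a lysyl hydroxylase used in crosslinking, had 3.2, 121.2, 132.6 and 43.1. Lox, the crosslinking oxidase, was under the floor on all arrays.

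Of 19 other collagen chains 2 were higher in the live coculture and 0 in the irradiated coculture. Both were chains of type IV. Col4a5 had 32.1, 100.3, 65.5 and 45.7 and Col4a6 had 41.1, 91.7, 67.6 and 43.2, with log2 ratios to the control of at least 1.18 and at least 1.05 in the live and at least 0.56 and at least 0.61 in the irradiated coculture. A dimmer probe set of Col4a5 had 2.5, 92.3, 108.7 and 9.8, a log2 ratio of at least 1.29 in the irradiated coculture. Of 12 other basement membrane proteins 8 were under the floor on all arrays, among them Lama1, Lamb1, Nid1 and Nid2, and 1 was higher in both cocultures. It was the laminin chain gene Lama5, with 42.3, 113.4, 172.9 and 79.4, whose dimmer probe set had 23.7, 38.6, 50.0 and 31.7. The medians of both lists were 0.00 in both cocultures.

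Of 20 matricellular and other matrix glycoproteins 4 were higher in each coculture, with medians of 0.06 and 0.08. Thbs1, an adhesive glycoprotein that regulates angiogenesis, had 2296.3, 7282.3, 8338.3 and 4457.5. The proteoglycan genes Dcn and Vcan had 87.6, 201.7, 324.7 and 78.2 and 136.3, 308.3, 469.6 and 176.1. Ccn1, a matricellular protein of adhesion and wound repair, had 36.1, 107.9, 151.7 and 54.2. Another probe set of Thbs1 had larger log2 ratios, 3.07 in the live and 3.55 in the irradiated coculture. Other probe sets of Vcan had 0.91 and at least 0.93 in the live coculture, and 1.70 and at least 2.27 in the irradiated coculture. Another of Ccn1 had at least 0.99 and at least 1.30. Of 22 genes of the actin and smooth muscle cytoskeleton 1 was higher in each coculture, the calponin gene Cnn3, with 67.2, 252.9, 272.1 and 111.5. Its 5 other probe sets that passed the floor on some array were under it in the control. Their log2 ratios, taken at their bounds, ran from 0.00 to 1.56 in the live and from 0.15 to 1.66 in the irradiated coculture. The smooth muscle genes Cnn1, Lmod1, Myh11 and Myl9 were under the floor on all arrays, as Tagln was. Of 18 matrix receptors 2 were higher and 1 lower in each coculture. Higher were the integrin gene Itga3 (62.9, 368.2, 325.4 and 87.3) and the syndecan gene Sdc4 (130.3, 282.5, 376.4 and 137.5). Another probe set of each differed by less, with log2 ratios of 0.61 and 0.43 for Itga3 and of -0.29 and 0.26 for Sdc4. Lower was Itgb3 (177.4, 6.7, 26.9 and 97.6).

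Of 20 mesenchymal transcription factors and TGF-beta pathway genes 2 were higher in each coculture, Tead1 (29.3, 111.3, 109.4 and 52.8) and Smad7 (94.1, 216.2, 190.0 and 146.7), with medians of 0.02 and 0.08. Another probe set of each was near or under the floor, with 32.7, 34.8, 48.3 and 28.5 for Tead1 and 25.5, 33.8, 48.3 and 39.9 for Smad7. With the probe sets of a gene averaged, 1 gene of the list was higher in the live and 0 in the irradiated coculture. Snai2, Twist1 and Twist2 were under the floor on all arrays.

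Of the marker lists of other cells, that of epithelium and mesothelium was higher on the same arrays as the members. From 20 markers of epithelium and mesothelium, 7 were higher with live and 8 with irradiated 1D8 cells, none was lower, and the medians were 0.67 and 0.81. None was higher in conditioned medium, where the median was 0.00. Their summed signal was 763.5, 3515, 4130 and 1192. None had a signal of 0, and Cldn7, Dsp, Krt7, Lrrn4, Muc1 and Pax8 were under the floor on all arrays. The keratin gene Krt18 had 9.9, 269.0, 304.8 and 58.3, and Krt8 had 66.1, 386.8, 458.0 and 64.1. Krt19 had 8.6, 569.7, 767.4 and 22.2, and Cdh1, the epithelial cadherin gene, had 189.5, 930.5, 1102.2 and 338.0. Of 13 fibroblast and mural cell markers none was higher or lower on any treated array. Their summed signal was 16201, 14752, 16632 and 14138. Most of it came from Vim (9501.4, 8936.1, 10053.8 and 8887.6) and S100a4 (6385.6, 5491.7, 6281.5 and 4935.1), so it says little about the other markers. In the control 10 of the 13 were at or under the floor. Pdgfrb, Fap, Cdh11, Mme and Dpt were under the floor on all arrays. Of 12 endothelial markers none was higher in a coculture. Vwf was lower in both, with 438.5, 71.7, 74.7 and 150.6, and Cdh5, Emcn, Flt1, Tek and Tie1 were under the floor on all arrays. Endothelial signals summed to 1334, 877.7, 913.8 and 998.0.

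Of 16 dendritic cell markers 15 or 16 exceeded the floor on each array. Some of them were near it or under it, namely Zbtb46 (56.1, 63.1, 58.5 and 56.5), Flt3 (45.5, 58.7, 46.7 and 73.2) and Cd209a (53.3, 30.8, 47.4 and 35.0). Their summed signal was 32352, 20738, 22215 and 28615, with 1 higher and 3 lower in the live and 2 higher and 2 lower in the irradiated coculture. H2-Eb1, an MHC class II chain, had 4244.1, 1347.5, 1652.9 and 3527.6, and Ccr7, a chemokine receptor of mature dendritic cells, had 596.4, 131.6, 117.5 and 175.7. Cd80, whose product was used for the sort, had 85.5, 378.2, 325.8 and 201.3. Of 11 macrophage markers 2 were higher in each coculture, Itgam (1038.1, 2846.3, 3675.2 and 2740.5) and Cd14 (2258.3, 5615.1, 7822.5 and 2311.2), and the list summed to 31398, 34374, 38677 and 32927. The part of the tumour cells in the member signals was not tested.

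**Figure D4:**
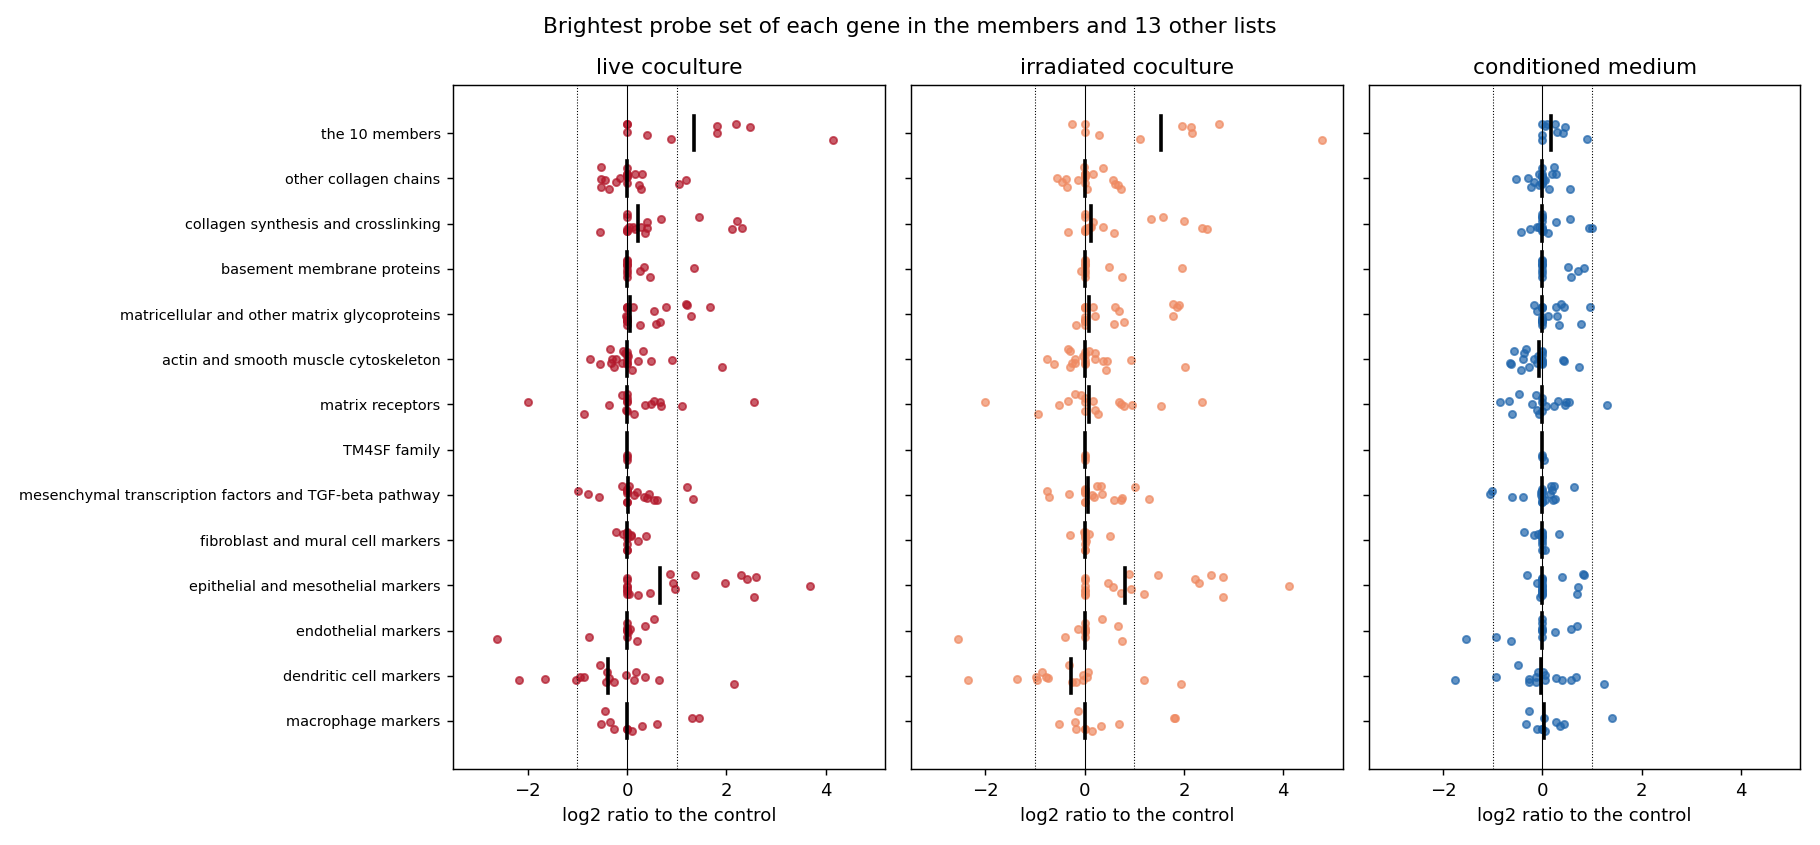
Log2 ratio to the control of each gene (point) and the median (black bar) for the 10 members and the 13 other lists, in the live coculture, the irradiated coculture and conditioned medium. Dotted lines mark 2-fold, and points are shifted vertically at random to separate them. In both cocultures the members and the epithelial and mesothelial markers had the medians farthest above 0, at 1.35 and 0.67 in the live and 1.53 and 0.81 in the irradiated coculture.

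The genes nearest to 3 members were found by Euclidean distance over the 3 log2 ratios to the control, among 7076 genes with a signal of at least 4 floors on some array. These ratios rest on 4 arrays and share the control. Nearest to Sparc were Nfil3 (distance 0.21), Gys1 (0.23), Ccl24 (0.28), Fam162a (0.29) and Dusp1 (0.31). Nearest to Cald1 were Abtb2 (0.21), Itga3, Osm, Me1 and Hivep2 (0.24 each). For Tm4sf1, whose coculture ratios were among the largest of all genes, they were Trib1 (0.52), Sox4 (0.61), Krt19 (0.81), Hilpda (0.83) and Trem1 (1.09). The coculture ratios of Tm4sf1, Trib1, Krt19, Ccl24 and Hivep2 to the control are bounds set by the floor. Distances that use them therefore depend on the floor.

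The arrays had the same mean signal, 150.0, once the lowest and highest 2% of probe sets were left out, and 58.8% to 62.5% of genes exceeded the floor. Another scaling moved the balance of calls over all genes. As deposited 60.1% of calls were higher in the live, 60.7% in the irradiated coculture and 62.1% in conditioned medium. After quantile normalization these were 49.8%, 53.0% and 45.5%, and after median centring 46.7%, 52.5% and 42.4%. For live coculture, genes that exceeded the floor on every array had a median log2 ratio of -0.04 as deposited and -0.16 after centring. Centring used the medians of all non-control probe sets above the floor on every array, including those without a single gene. It did not centre the genes themselves. Sparc, Cald1, Tm4sf1, Col4a1 and Col4a2 stayed at least 2-fold higher in both cocultures under both scalings. For live coculture the log2 ratio of Fn1 at 1426642_at was 1.12 after quantile normalization, past 2-fold, and 0.77 after centring.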

How the data were processed

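RNA of 4 BMDC samples, 1 for each condition, was measured on Affymetrix mouse arrays after 1 round of oligo-dT primed amplification, per the labels' protocols. The deposited values are linear intensity values, 1 signal per probe set, made by the authors with GCOS 1.4 and MAS5, per the submitters' processing notes, whose scaling target is not given in the sources used here. MAS5 subtracts mismatch signal, which makes dim signals noisy. Of 45101 probe sets 64 were controls and were left out, 34945 had 1 gene, 932 several and 9160 none in the annotation, and 34741 were matched to RefSeq through Entrez identifiers with 0 symbols replaced. All 24 member probe sets had 1 gene.

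Signals were floored at 44.3, log2 ratios were taken, and 2-fold was counted. To rank the probe sets of a gene, signals under 0.1 were set to 0.1. With 1 array per condition no test was run, and precision is limited by the number of arrays. The ratio and call steps were tested on simulated data, with changes put into bright probe sets only. Changes in dim signals near the floor were not covered. Python 3.11.15, numpy 2.4.6 and pandas 2.3.3 were used. Detection calls were not used here.

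The members, the gene lists and the alternatives were chosen with earlier results of these data known. Genes named are the members, up to 4 of each list with the largest ratios past 2-fold in a coculture, and the 5 nearest to Sparc, Cald1 and Tm4sf1. Genes named as under or near the floor, and Vim and S100a4, were chosen after their values were seen. The comparisons of the cocultures with conditioned medium were added later. The alternatives were floors at the percentiles 25 (12.9) and 75 (155.6), quantile normalization, median centring, averaging a gene's probe sets, and a 3-fold threshold.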

Additional observations from a re-analysis of the deposited data

How the results depend on the processing

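No paired analysis was possible because each condition had 1 array. The counts of members did not turn direction under any alternative, and quantile normalization, median centring and a 3-fold threshold kept each within 1.5 times. With the floor at percentile 75 (155.6), which exceeds or nearly equals several coculture signals, the members counted as higher were 2 in place of 5 in the live and 3 in place of 6 in the irradiated coculture against the control, and 2 in place of 5 in each coculture against conditioned medium. With that floor the log2 ratio of Sparc in the live coculture was 0.53 and that of Cald1 in the irradiated coculture 0.97. Col4a1 then had 0.34 and 0.69, and Col4a2 0.00 and 0.14, in the live and irradiated coculture. With the floor at percentile 25 (12.9) Col1a1 passed 2-fold in both cocultures, at 1.32 and 1.21, and 1 member, Col3a1, was lower in the irradiated coculture than in conditioned medium where 0 had been. As the mean over probe sets 1 member, Fn1, was higher in conditioned medium (log2 ratio 1.22) where 0 had been, and Fn1 in the live coculture reached 2.17, while Tm4sf1 had 1.48 and 1.59, shrunk by construction by its probe sets under the floor. Among the lists, averaging probe sets left 1 matrix glycoprotein in place of 4 higher in each coculture, 0 basement membrane proteins in place of 1 in each, and 1 (live) and 0 (irradiated) transcription factor and TGF-beta genes in place of 2. The floor at percentile 75 left 3 epithelial and mesothelial markers in place of 7 and 8, and 1 gene of collagen synthesis in place of 4 and 5. Of 114 values for single genes and lists, 24 changed their call or moved with that floor, 21 with the floor at percentile 25, 16 with averaging, 7 with quantile normalization and 2 with centring.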
